A study of Mus musculus with 4 samples.

Results

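Chloride, sodium and water transport in the small intestine (SI) was followed through 10 genes: the chloride channel gene Cftr, the sodium-potassium-chloride cotransporter gene Slc12a2, the sodium/hydrogen exchanger gene Slc9a3, the anion exchanger genes Slc26a3 and Slc26a6, the aquaporin genes Aqp1, Aqp3, Aqp4 and Aqp7, and the uroguanylin gene Guca2b. They were taken by name from a table of 56748 genes, and each name matched 1 row. There were 2 libraries of SI from p53+/+ mice (libraries 7 and 8, labelled WT) and 2 from p53-/- mice (libraries 9 and 10). All 4 libraries were from mice given 12 Gy of total body irradiation (TBI) and taken 1 day later, so an unirradiated level is not part of the comparison. The study used age-matched mice of 8 to 12 weeks. The p53-/- mice lack p53 in every tissue, and whole SI tissue was sequenced, so a difference in this tissue cannot be assigned to one cell type. In such bulk samples fewer cells of a type and less RNA per cell cannot be told apart.

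The intestine moves water by moving salt. In crypts, SLC12A2 brings chloride into the epithelial cell across its basolateral membrane and CFTR lets it out into the lumen, with sodium and water following. On villi, NHE3 (the product of Slc9a3) takes up sodium in exchange for protons while the anion exchangers DRA (Slc26a3) and PAT-1 (Slc26a6) take up chloride in exchange for bicarbonate and other anions. Uroguanylin and its relative guanylin bind the receptor guanylate cyclase C, and the cyclic GMP it makes opens CFTR and inhibits NHE3. Aquaporins are water channels, and some of them, AQP3 and AQP7 among them, also pass glycerol.

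Upstream sequence was read for the absorptive gene with the highest fold change (Slc9a3) and for the pair of genes with the lowest fold changes (Guca2b and Slc26a3), so that the start regions of genes with opposite differences stand side by side. Each run holds the 250 bases before the annotated start of transcription, 5′ to 3′ on the strand of the gene, in RefSeq's GRCm38.p6. Capitals mark 4 motifs searched on both strands: the TATA box, with the letters TATAAA, the GC box, with GGGCGG, the CCAAT box, and the half-site of the hepatocyte nuclear factor HNF1, with GTTAAT.

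Slc9a3, chr13:74121163-74121412, plus strand: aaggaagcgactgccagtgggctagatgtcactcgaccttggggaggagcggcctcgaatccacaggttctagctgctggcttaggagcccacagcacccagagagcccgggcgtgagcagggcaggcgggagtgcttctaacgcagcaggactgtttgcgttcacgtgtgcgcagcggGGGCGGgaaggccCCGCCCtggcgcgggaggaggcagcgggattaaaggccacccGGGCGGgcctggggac
Slc26a3, chr12:31437969-31438218, plus strand: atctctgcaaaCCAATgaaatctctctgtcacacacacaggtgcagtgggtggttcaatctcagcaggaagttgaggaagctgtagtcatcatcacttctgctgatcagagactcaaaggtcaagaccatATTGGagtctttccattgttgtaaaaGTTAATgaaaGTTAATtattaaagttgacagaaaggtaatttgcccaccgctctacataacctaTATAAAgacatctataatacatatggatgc
Guca2b, chr4:119658946-119659195, minus strand: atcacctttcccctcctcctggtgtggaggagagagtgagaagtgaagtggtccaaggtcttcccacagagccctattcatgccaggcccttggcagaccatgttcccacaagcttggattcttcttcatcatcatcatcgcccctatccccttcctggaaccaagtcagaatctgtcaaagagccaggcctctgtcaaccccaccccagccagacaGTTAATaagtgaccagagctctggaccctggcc

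The Slc9a3 run was 67.6% G or C and held 3 GC boxes, at 71, 58 and 16 bases before the start, and no TATA box. The Slc26a3 run was 38.8% G or C and held 1 TATA box, 30 bases before the start, with 2 CCAAT boxes and 2 HNF1 half-sites. The Guca2b run was 54.4% G or C and held 1 HNF1 half-site, 33 bases before the start. Of 32851 promoters read over the same length, 12.4% held the TATA box letters, 32.7% a GC box, 33.8% a CCAAT box and 6.43% an HNF1 half-site. A site for GATA factors, with the letters AGATAA, was in 9.99% of them, a site for CDX factors, with TTTATG, in 10.8% and a p53 half-site in 7.13%, and none of these was in the 3 runs. These motifs were picked with the sequences already read, and a match or its absence is a description of letters only.

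The libraries held 17430246 and 15005479 counts (p53+/+, libraries 7 and 8) and 22173164 and 19811346 counts (p53-/-, libraries 9 and 10). Levels are given as normalised counts per 1e6 counts (CPM) on library sizes scaled by TMM, a scaling that takes most genes as unmoved. Trp53 itself was at 57.7 and 47.0 CPM in p53+/+ and 19.8 and 22.5 CPM in p53-/- SI, and its target Phlda3 was at 87.1 and 91.7 against 1.93 and 1.54 CPM, as the labels have it. Several libraries stood apart. Library 8 held 4488 CPM of smooth muscle genes against 480 to 994 CPM in the other libraries. Library 10 held 430 CPM of B cell genes against 1.11 to 21.8 CPM elsewhere, and 4.59% of its counts fell on the ribosomal RNA gene Rn18s-rs5 against 0.296% to 0.863%. The ileal genes Fabp6 (1636 to 5476 CPM) and Slc10a2 were high in every library, while the stomach genes found in the table had at most 4 counts and the pancreatic genes at most 6. Which stretch of the SI was taken is not given in the sources used here.

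All 10 genes passed the filter on low counts, and none of them passed the threshold of an adjusted p of 0.05 in edgeR's quasi-likelihood test, which called 48 genes higher in p53-/- SI (0.298% of the 16094 tested) and 31 lower (0.193%). At an unadjusted p under 0.05, 2 of the 10 were higher (Slc9a3 and Aqp4) and 4 lower (Cftr, Slc26a3, Aqp7 and Guca2b), against 10% and 7.92% of all genes tested. DESeq2 called the same 2 and 4 genes, against 5.05% higher and 4.12% lower of all genes. In 2 genes both p53-/- libraries were above both p53+/+ libraries (26.4% of all genes), and in 5 genes, the 4 above and Slc26a6, both were below (24.4%). The median log2 fold change of the 10 genes was -0.37, against -0.0084 over all genes tested. Adjusted p-values below are from edgeR. They rest on the spread between 2 libraries a genotype, which edgeR draws toward that of other genes of like level.

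**Figure D1:**
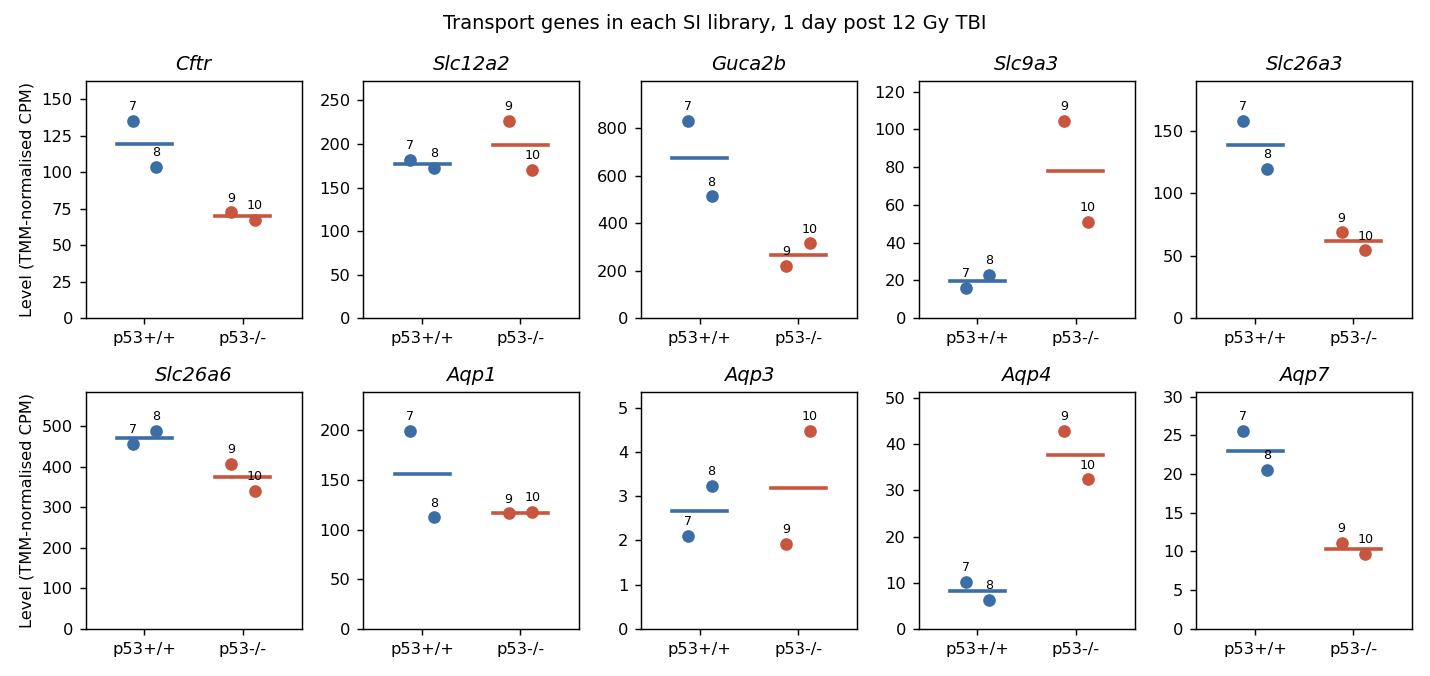
Level of each of the 10 genes (vertical axis, TMM-normalised CPM from 0) in the 2 p53+/+ (blue) and 2 p53-/- (red) libraries, with library numbers beside the points and lines at the group means. Slc9a3 and Aqp4 are higher in both p53-/- libraries, Cftr, Slc26a3, Slc26a6, Aqp7 and Guca2b are lower in both, and Slc12a2, Aqp1 and Aqp3 overlap.

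The 2 genes of chloride secretion differed in pattern. Cftr, the apical chloride channel, was at 135 and 104 CPM in p53+/+ SI and at 72.4 and 67.2 CPM in p53-/- SI. Both p53-/- libraries were thus below both p53+/+ libraries, with a log2 fold change of -0.77 ± 0.19 (SE, 2 libraries a genotype; adjusted p = 0.145). Slc12a2, which loads the cell with chloride, was at 181 and 173 CPM against 227 and 170 CPM. These groups overlapped, and the log2 fold change of 0.16 had a 95% interval of -0.36 to 0.69 (adjusted p = 0.750). Within a library, the log2 CPM of Cftr minus that of Slc12a2 was -0.42 and -0.74 in p53+/+ SI and -1.65 and -1.34 in p53-/- SI, a pair chosen after its values were seen. In the GENCODE M21 annotation 129 bases of Cftr exons (1.66%) are shared with the antisense gene Gm15592, and whether counting used strand is not given in the sources used here.

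Of the 3 exchanger genes, Slc9a3 was higher and both anion exchanger genes were lower in both p53-/- libraries. Slc9a3 was low in p53+/+ SI, at 16.1 and 23.0 CPM, and was at 105 and 50.9 CPM in p53-/- SI. All of the p53-/- values lay above all of the p53+/+ values, though library 9 was well above library 10. The log2 fold change was 1.99 ± 0.39 (SE, 2 libraries a genotype; a 3.98-fold difference, 95% interval 1.01 to 2.98 on the log2 scale), with an adjusted p of 0.105. Slc26a3, the chloride/bicarbonate exchanger that works beside NHE3, was at 158 and 119 CPM against 68.8 and 54.3 CPM. It was lower in both p53-/- libraries, with a log2 fold change of -1.17 ± 0.22 (SE; adjusted p = 0.103). Slc26a6, which also exchanges oxalate and bicarbonate, was at 457 and 488 CPM against 408 and 341 CPM. Its groups did not overlap, but its interval of -0.86 to 0.19 around a log2 fold change of -0.34 took in 0 (adjusted p = 0.478).

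Set against each other within a library, the log2 CPM of Slc9a3 minus that of Slc26a3 was -3.29 and -2.37 in p53+/+ SI. In p53-/- SI it was 0.61 in library 9 and -0.092 in library 10, so the 2 genes were near each other there. This pair, too, was chosen after its values were seen. The mean log2 level of the secretory pair (Cftr and Slc12a2) minus that of the absorptive pair (Slc9a3 and Slc26a3) was 1.63 and 1.35 in p53+/+ SI and 0.60 and 1.02 in p53-/- SI. The genotypes did not overlap in this measure and differed by -0.68, a value that a scaling of whole libraries leaves nearly unmoved and for which no p is given, the genes having been chosen with results known. Within both pairs the 2 genes had differences of opposite sign, that of Slc12a2 turning to -0.060 without library 9. Of the absorptive pair, Slc9a3 (1.99) lowered the measure in p53-/- SI and Slc26a3 (-1.17) raised it, so its sign depends on the inclusion of Slc9a3. Slc26a6 (-0.34), the other anion exchanger gene, was not part of the measure.

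Guca2b, the gene of the peptide uroguanylin, had the highest level per length of the 10 genes in both genotypes, at 773 reads per kilobase of exon at the same library scaling (RPKM) in p53+/+ and 307 RPKM in p53-/- SI on average. In CPM it was at 832 and 513 against 220 and 315. Both p53-/- libraries lay below both p53+/+ libraries, with a log2 fold change of -1.33 ± 0.33 (SE, 2 libraries a genotype; 2.52 times lower; adjusted p = 0.145). Guca2a, the gene of guanylin, was at 1070 and 709 CPM against 400 and 468 CPM, a log2 fold change of -1.03 (adjusted p = 0.167). The gene of their receptor, Gucy2c, named after its values were seen, was at 349 and 347 CPM against 331 and 264 CPM, a log2 fold change of -0.23 (adjusted p = 0.635). The means of both ligand genes were thus lower by more than that of the receptor gene, a difference between genes that was not tested.

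The 4 aquaporin genes showed 3 patterns. Aqp4, a water channel of basolateral membranes, was at 10.2 and 6.28 CPM in p53+/+ SI and at 42.8 and 32.4 CPM in p53-/- SI. Both p53-/- libraries were above both p53+/+ libraries by a log2 fold change of 2.19 ± 0.32 (SE; 4.56-fold, 95% interval 1.39 to 2.98 on the log2 scale), and its adjusted p of 0.0602 was the smallest of the 10. Aqp7, an aquaglyceroporin, was at 25.5 and 20.5 CPM against 11.1 and 9.64 CPM. It was lower in both p53-/- libraries, with a log2 fold change of -1.15 ± 0.25 (SE; adjusted p = 0.115).

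Aqp1, best known from endothelium and red blood cells, was at 199 and 112 CPM against 116 and 118 CPM. Only library 7 was apart from the other libraries, and the log2 fold change of -0.41 had an interval of -1.15 to 0.33 (adjusted p = 0.539). Aqp3, another aquaglyceroporin, had 34, 50, 44 and 90 counts in libraries 7 to 10, or 2.10 and 3.24 against 1.93 and 4.47 CPM. Its groups overlapped and its interval of -1.20 to 1.72 around 0.26 was the widest of the 10 (adjusted p = 0.868).

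**Figure D2:**
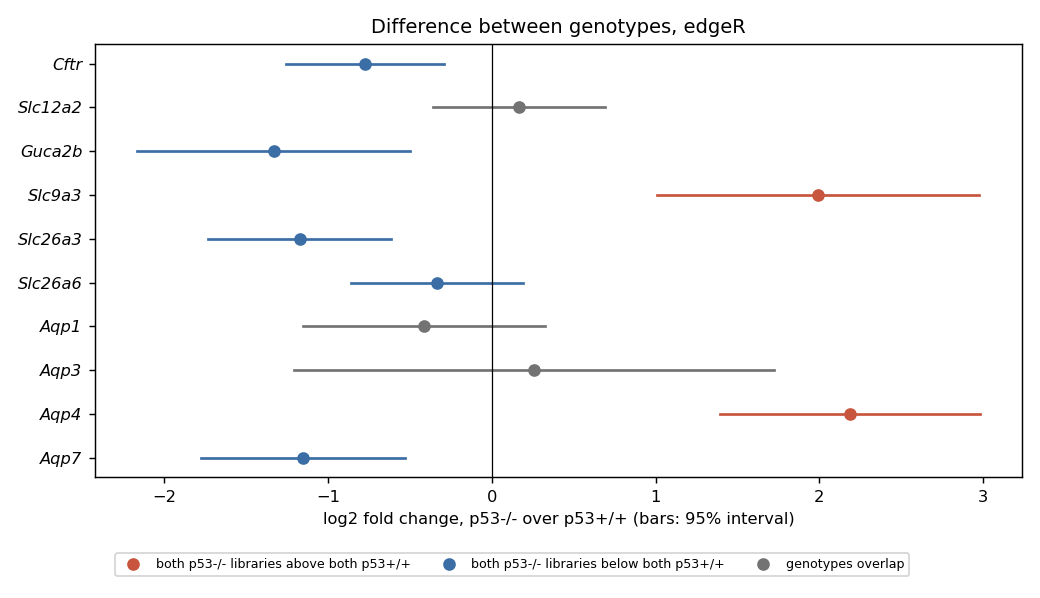
Fitted log2 fold change of each gene, p53-/- over p53+/+ (horizontal axis), with 95% intervals from edgeR as bars. Red and blue mark genes whose p53-/- libraries are both above or both below the p53+/+ libraries, and the intervals of Slc12a2, Slc26a6, Aqp1 and Aqp3 take in 0.

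Per length the order of the genes differed between the genotypes. In p53+/+ SI, Guca2b was followed by Slc26a6 (87.3 RPKM), Aqp1 (59.2), Slc26a3 (21.8), Slc12a2 (16.2), Cftr (15.4), Aqp7 (8.14), Slc9a3 (3.55), Aqp3 (1.46) and Aqp4 (1.32 RPKM). Of these neighbours Slc12a2 and Cftr, and Aqp3 and Aqp4, overlapped in their libraries. In p53-/- SI the first 3 places were the same, then came Slc12a2 (18.2 RPKM), Slc9a3 (14.1), Slc26a3 (9.66) and Cftr (8.99), each overlapping with the next, and then Aqp4 (6.03), Aqp7 (3.66) and Aqp3 (1.75 RPKM). Slc9a3 therefore stood among the exchanger and chloride genes in p53-/- SI and below them in p53+/+ SI.

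The genes around these 10 were read from 7 lists of 67 genes, of which 54 passed the filter on low counts. Of the 54, 1 passed the test, Sgk1, which was lower, and 0 were higher, against 0.193% and 0.298% of all genes tested. By sign alone 15 were higher and 39 lower, with a median log2 fold change of -0.28. Under a scaling to epithelial genes, chosen after seeing the data, that median turned to 0.17 while the median of all genes tested moved to 0.45. The medians of the chloride secretion, bicarbonate and sodium pump lists turned with it, to 0.28, 0.11 and 0.088, and those of the sodium absorption and cyclic nucleotide lists stayed below 0, at -0.079 and -0.0023. At an unadjusted p under 0.05, 1 was higher (Car4) and 12 lower, against 10% and 7.92% of all genes tested. DESeq2 called 1 higher and 12 lower, against 5.05% and 4.12%. Both p53-/- libraries were above both p53+/+ libraries in 3 of them and below in 26, against 26.4% and 24.4% of all genes.

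Sodium absorption was the list with the lowest fitted value. Sgk1, a kinase known to raise sodium uptake through ENaC and NHE3, fell from 535 and 534 CPM in p53+/+ SI to 127 and 151 CPM in p53-/- SI. Its log2 fold change was -1.94 ± 0.20 (SE, 2 libraries a genotype; adjusted p = 0.0424). Of the other 11 tested genes of this list 9 were lower and 2 higher by sign, and the median of the whole list was -0.54. Among those named after their values were seen, Pdzk1, a scaffold that binds NHE3, was at 220 and 208 against 111 and 126 CPM (adjusted p = 0.110). Slc9a2, the gene of the related apical exchanger NHE2, was at 445 and 293 against 237 and 181 CPM (adjusted p = 0.230). On the log2 scale Slc9a2 was at -0.82, where Slc9a3 was at 1.99. Chp1 (-0.92, adjusted p = 0.171) and Nedd4l (-0.67, adjusted p = 0.166), also named after their values were seen, had smaller unadjusted p than Slc9a2. The ENaC subunit genes Scnn1b and Scnn1g had at most 3 counts in any library. A further subunit gene, Scnn1a, named after its values were seen, was at 18.2 and 16.6 against 19.7 and 13.1 CPM (adjusted p = 0.913).

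**Figure D3:**
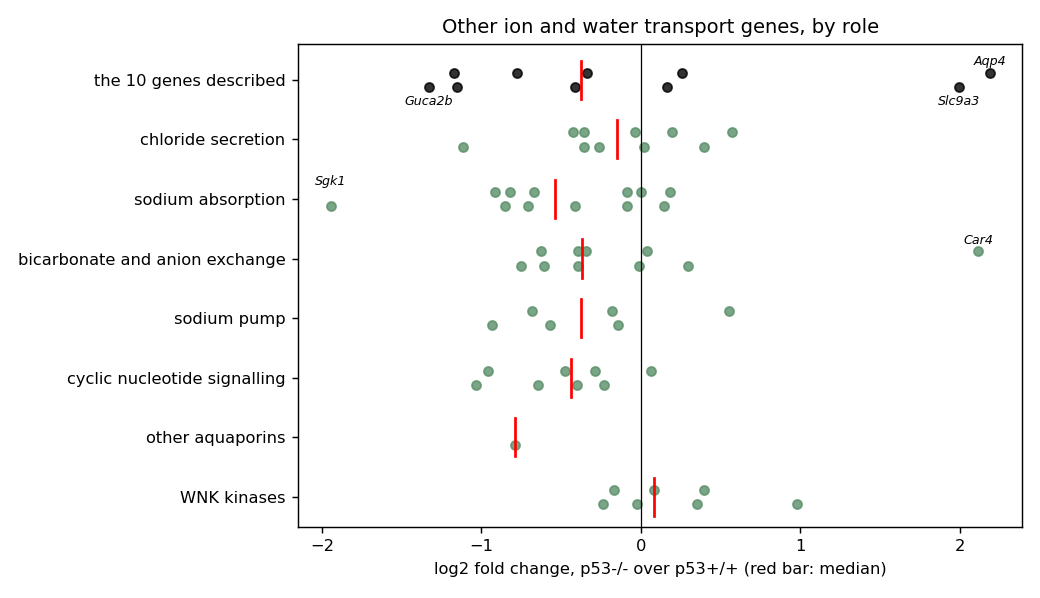
Fitted log2 fold change, p53-/- over p53+/+ (horizontal axis), of the 10 genes (black) and of the 54 tested genes of 7 related lists (green), 1 point per gene, with red bars at the medians. Sgk1 (-1.94) and Car4 (2.12) lie farthest from 0 among the related genes.

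Bicarbonate and anion exchange held the other gene near the threshold. Car4, a carbonic anhydrase anchored at the cell surface, was at 55.1 and 83.1 CPM in p53+/+ and 289 and 311 CPM in p53-/- SI, a log2 fold change of 2.12 ± 0.25 (SE; adjusted p = 0.0509). Both p53-/- libraries were above both p53+/+ libraries, as for Slc9a3. Car12, another carbonic anhydrase, was at 54.3 and 49.1 against 34.5 and 27.0 CPM (adjusted p = 0.145), and Slc26a2, a sulfate transporter, was at 701 and 706 against 524 and 386 CPM (adjusted p = 0.269). Of the 10 tested genes here 3 were higher and 7 lower by sign, with a median of -0.37.

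The partners of chloride secretion gave smaller values, 4 higher and 6 lower by sign of 10 tested, with a median of -0.15. Kcnk5, a potassium channel, was at 189 and 107 against 84.9 and 51.6 CPM (adjusted p = 0.211). Kcne3, the subunit that keeps the basolateral channel KCNQ1 open during secretion, was at 38.9 and 26.5 against 56.9 and 40.4 CPM (adjusted p = 0.341), and the calcium-activated channel gene Kcnn4 was at 38.3 and 22.4 against 37.4 and 42.3 CPM (adjusted p = 0.542). None of these 10 genes passed the test in edgeR. At an unadjusted p under 0.05, 0 were higher and 1 lower, against 10% and 7.92% of all genes. DESeq2 gave the same counts, against 5.05% and 4.12%.

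In the cyclic nucleotide list 1 gene was higher and 7 lower by sign of 8 tested (median -0.44). Besides Guca2a these included Ptger4, a prostaglandin E2 receptor gene, at 83.8 and 131 against 52.8 and 57.8 CPM (adjusted p = 0.153), and Prkg2, a cyclic GMP-dependent kinase gene, at 47.3 and 60.3 against 37.5 and 31.5 CPM (adjusted p = 0.188). Of 6 genes of the sodium pump, which drives all of this transport, 1 was higher and 5 were lower by sign (median -0.38). Its Atp1b1 was at 1852 and 1344 against 1176 and 976 CPM (adjusted p = 0.387), Atp1b2 was at 1.48 and 10.5 against 3.02 and 3.23 CPM (adjusted p = 0.650) and the regulator gene Fxyd3 was at 11.4 and 6.03 against 11.3 and 14.3 CPM (adjusted p = 0.539).

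The WNK kinases set the activity of SLC12A2 through the kinases encoded by Stk39 and Oxsr1. The list of WNK genes, which also holds Stk39, Oxsr1, Klhl3 and Cul3, had 4 genes higher and 3 lower by sign (median 0.084). Wnk1 was at 106 and 114 against 143 and 148 CPM (adjusted p = 0.281), Oxsr1 at 95.7 and 80.9 against 77.2 and 72.5 CPM (adjusted p = 0.527) and Klhl3 at 0.309 and 1.23 against 0.963 and 2.09 CPM (adjusted p = 0.610). Of 8 further aquaporin genes, 6 had at most 3 counts in every library and Aqp11 alone was tested. Aqp11, found on internal membranes, was at 66.0 and 54.6 against 36.9 and 32.9 CPM (log2 fold change -0.79, adjusted p = 0.119), lower in both p53-/- libraries as Aqp7 was.

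Cell type and segment markers moved with the genotype beside these results. All 8 epithelial genes were lower by sign, and 7 of them did not overlap between genotypes, against 24.4% of all genes. The median log2 fold change of the 8 genes was -0.46. Their summed level was 24546 and 17764 CPM against 16625 and 13748 CPM, with Krt8 the highest. The 10 enterocyte genes, Anpep the highest among them, were also all lower by sign (median -0.73), at summed levels of 28231 and 27653 against 20512 and 17233 CPM. When library sizes were set by these epithelial genes, the median of the 10 transport genes was 0.10 and that of all genes tested was 0.45. Cftr, Slc26a3, Aqp7 and Guca2b then stood at -0.30, -0.70, -0.68 and -0.80. Slc26a6 and Aqp1 turned to 0.099 and 0.11, and Slc9a3 and Aqp4 stood at 2.36 and 2.68. Aqp4 passed the test under that scaling, which called 1.01% of all genes higher. The part of epithelial content in these results was not tested further. Of 6 Paneth cell genes 5 were higher by sign and did not overlap between genotypes, against 26.4% of all genes (median 0.60, summed 11713 and 7993 against 13830 and 15715 CPM). Of 6 goblet cell genes 4 were lower and 2 higher by sign (median -0.28, summed 14730 and 12755 against 10786 and 9241 CPM). The part of Paneth and goblet cells in these results was not tested.

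**Figure D4:**
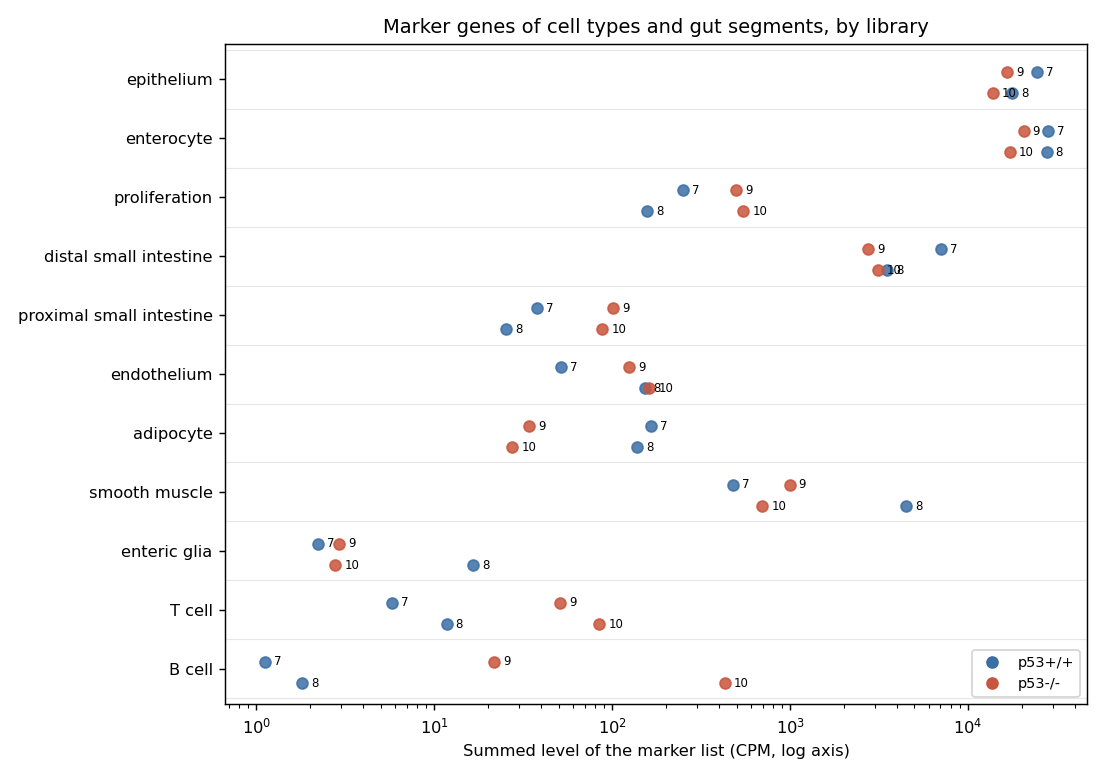
Summed CPM (horizontal log axis) of 11 marker lists in the p53+/+ libraries (blue) and p53-/- libraries (red), with library numbers beside the points. Proliferation, proximal small intestine, T cell and B cell lists are higher in both p53-/- libraries, while epithelium, enterocyte, distal small intestine and adipocyte lists are lower in both.

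Genes of dividing cells were at higher levels in both p53-/- libraries, as Slc9a3, Aqp4 and Car4 were. All 6 proliferation genes were higher by sign (median 1.23, summed 249 and 158 against 497 and 547 CPM), with Top2a the highest. In edgeR 0 passed the test and 6 were at an unadjusted p under 0.05, where 10% of all genes were higher. DESeq2 called 5, where 5.05% of all genes were called higher. Of 8 crypt stem cell genes 4 were higher and 4 lower by sign, and the highest of them, Olfm4, was at 47.5 and 15.9 against 473 and 524 CPM (adjusted p = 0.0587). The part of crypt and dividing cells in these results was not tested.

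Of 5 tested genes of the proximal SI 4 were higher by sign in p53-/- SI (median 1.45, summed 38.0 and 25.3 against 101 and 88.1 CPM, most of it from the iron exporter gene Slc40a1), while all 5 distal genes were lower by sign (median -0.56, summed 7013 and 3496 against 2730 and 3098 CPM). Beside these lists, Slc9a3, Aqp4 and Car4 were higher in both p53-/- libraries, while Cftr, Slc26a3, Slc26a6, Aqp7 and Guca2b were lower in both. Slc12a2, Aqp1 and Aqp3 overlapped between the genotypes. Several of the genes that differed are known to vary along the gut, and the part of segment in the result was not tested. Of 8 colon genes 5 (Hoxa13, Hoxb13, Hoxd10, Hoxd13 and Atp12a) had at most 3 counts in every library.

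Markers of other cell types that use the aquaporins were read beside each of them. Aqp7 is known from fat cells, and 9 of 9 tested adipocyte genes were lower by sign. Of these, 2 passed the test (Cfd and Car3), which called 0.193% of all genes lower. The summed levels were 164 and 138 against 34.0 and 27.4 CPM. Cidec, the highest of these genes, made up 116 and 43.2 against 18.3 and 13.8 CPM of the sums. The adipocyte genes Plin1 and Retn were at 0 counts in both p53-/- libraries and Adipoq at 0 and 3 counts, while Cidec still had 419 and 277 counts, Lpl 146 and 113, Fabp4 88 and 113 and Plin4 118 and 40 there (these named after their values were seen). Aqp7 had 253 and 194 counts in the same libraries and 413 and 317 counts in p53+/+ SI, and the part of fat cells in its difference was not tested. For Aqp1, the summed level of 10 endothelial genes, led by Plvap, was 51.8 and 152 against 125 and 162 CPM, with all 10 genes higher by sign (median 0.20). Red blood cell genes summed to at most 5.96 CPM in any library, with Alas2 at 3 counts or fewer. The part of either cell type in the levels of Aqp1 was not tested. For Aqp4, known from glia and the stomach, glial genes summed to 2.22 and 16.5 against 2.93 and 2.78 CPM, led by Gfap, with 3 of 3 tested genes lower by sign, and their part in the levels of Aqp4 was not tested. The stomach genes Atp4b, Gkn1 and Muc5ac were at 0 counts in every library. Genes of T cells and B cells were also higher by sign in p53-/- SI (6 of 6 and 5 of 5 tested), and their part in these results was not tested.

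The genes closest in pattern to Aqp4, by distance between centred log2 CPM over the 4 libraries among 13999 other protein-coding genes, were Pla2g5 (distance 0.0539), a secreted phospholipase gene, Tnfsf10 (0.126), which encodes the death ligand TRAIL, Kif20b (0.210), a mitotic kinesin gene, Fut1 (0.220), a fucosyltransferase gene, and Zfp971 (0.221). Pla2g5 was at 7.85 and 4.73 against 31.3 and 24.4 CPM, and Tnfsf10 at 26.3 and 16.8 against 105 and 76.6 CPM. A distance over 4 libraries is a description, since many genes that differ between the genotypes have a like order of libraries.

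How far the calls rest on single libraries is seen when each is left out. Without library 8, the one rich in smooth muscle genes, Aqp4 (1.88), Cftr (-0.96), Slc26a3 (-1.36) and Guca2b (-1.64) passed the test, where 3.51% of all genes tested were called higher and 1.88% lower. Without library 7 Aqp4 (2.59) passed, where 1.32% of all genes were called higher. Without library 9 or library 10 none of the 10 genes passed the test in edgeR, and without library 10 no gene of the table did (0 higher, 0 lower). At an unadjusted p under 0.05, 2 of the 10 were higher and 3 lower without library 9, against 7.12% and 4.12% of all genes, and 2 were higher and 4 lower without library 10, against 4.69% and 2.79%. Slc9a3 was at 1.38 without library 9 and at 2.46 without library 10. Aqp1 without library 7 (0.065), Aqp3 without library 7 (-0.018) and without library 10 (-0.43), and Slc12a2 without library 9 (-0.060) turned in sign.

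**Figure D5:**
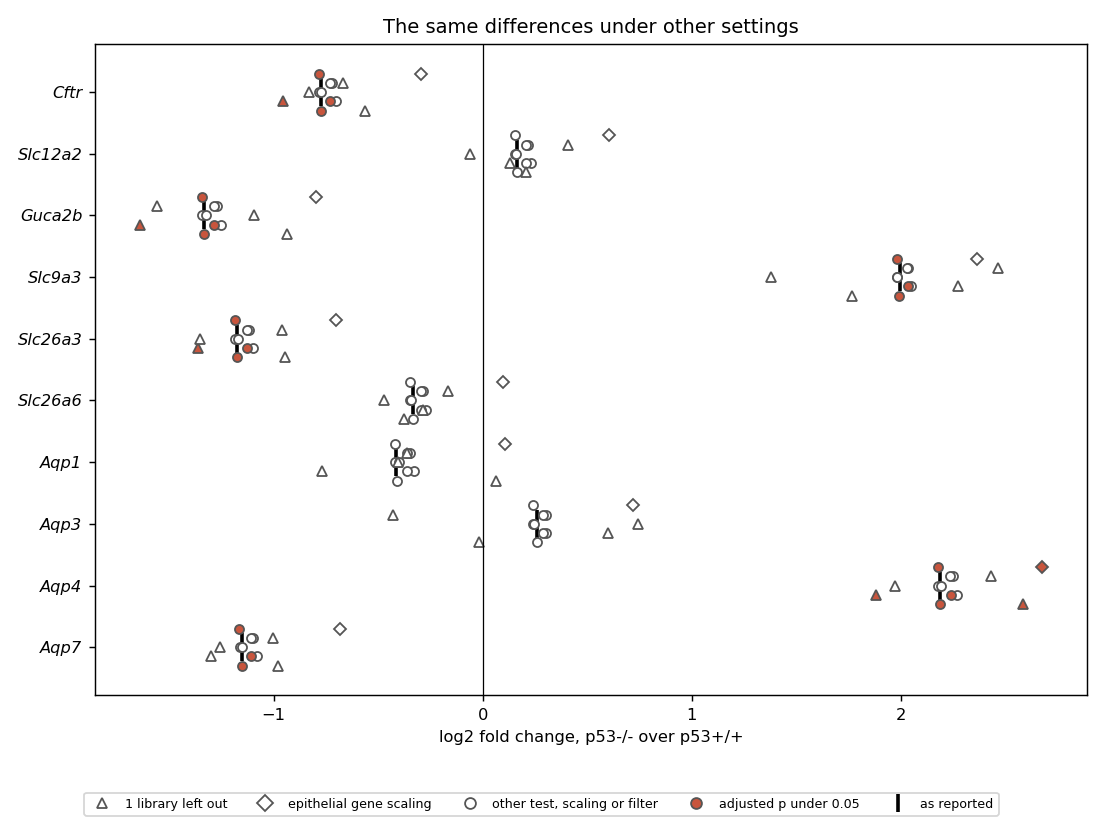
Log2 fold change of each gene, p53-/- over p53+/+ (horizontal axis), as reported (black bar) and with 1 library left out (triangles), under scaling to epithelial genes (diamonds) and under other tests, scalings or filters (circles, spread vertically for legibility). Filled symbols mark an adjusted p under 0.05, and the values of Cftr, Guca2b, Slc9a3, Slc26a3, Aqp4 and Aqp7 stay on one side of 0 throughout.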

How the data were processed

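The total RNA of the SI was selected for poly-A RNA and sequenced. The authors deposited raw read counts per gene, without normalization. The submitters' processing notes name fastp, HISAT2 2.0.5, featureCounts 1.5.0-p3 and DESeq2 1.20.0, while the genome build, annotation and strand setting are not given in the sources used here. Every column matched a genotype (0 columns left unmatched). Separate columns differed by more than sampling noise (chi-square per degree of freedom of 48.0 in p53+/+ and 69.5 in p53-/-). The paper calls its replicates biological in general, but the labels tie no library to a single animal. The p-values therefore measure no spread between known animals. They rest only on the spread between these libraries, drawn toward that of other genes of like level.

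From the counts, genes were filtered by filterByExpr and tested with edgeR 4.0.16 in R 4.3.3 (TMM, quasi-likelihood test, two-sided, Benjamini-Hochberg over 16094 genes, threshold 0.05). DESeq2 1.42.0 was an alternative. The SE is the log2 fold change divided by the square root of F. Log2 CPM used a prior count of 2. RPKM used GENCODE M21 exon lengths, which held 91.9% of the gene IDs. Promoters were matched for 8 of the 10 genes. The code was tested on simulated data.

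Named genes were the 10 genes, the genes of each pathway list past the threshold or else the 3 with the smallest unadjusted p, the highest marker of each list and those at up to 3 counts, the 5 genes nearest to Aqp4, Trp53 and Phlda3. The genes and lists were chosen with earlier results of these data known. Other scalings, filters, tests, a threshold of 0.10 and leaving out each library were tried. Results on some genes of the lists are not reported here.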

Additional observations from a re-analysis of the deposited data

How the results depend on the processing

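No paired analysis was possible because a column's name shows its genotype and no replicate number that the labels use. The signs of Cftr, Guca2b, Slc9a3, Slc26a3, Aqp4 and Aqp7 held in all 13 other fits. The number of genes called higher and lower was 26 and 20 with unscaled library sizes, 29 and 20 under upper-quartile scaling, 23 and 19 when 10 counts were required in each library, 812 and 663 with DESeq2, 833 and 462 with edgeR's likelihood ratio test, 1433 and 761 without a filter, 163 and 19 under epithelial gene scaling (chosen after seeing the data) and 238 and 134 at an adjusted p under 0.10. These fits tested 16094 genes, except 13863 where 10 counts were required and 27841 without a filter. Of the 10 genes, DESeq2 called 2 higher and 4 lower, against 5.05% and 4.12% of all genes. The likelihood ratio test called 2 and 4, against 833 and 462 of 16094. The fit without a filter called 2 and 4, against 1433 and 761 of 27841. Epithelial scaling called 1 higher, against 1.01% of all genes, and the 0.10 threshold 1 higher, against 238 of 16094. Of the 54 tested pathway genes DESeq2, the likelihood ratio test and the fit without a filter called 13, 8 and 11, and the 0.10 threshold 2. The cause of these differences was not tested. Leaving out 1 library, which leaves a genotype with a lone library assumed to vary like the others, gave 0 to 565 genes higher, 0 to 302 lower, 0 to 1 of the 10 genes higher, 0 to 3 lower and 0 to 3 pathway genes. The lowest counts came without library 10, where 755 genes were higher and 449 lower at an unadjusted p under 0.05, and the highest without library 8. The secretory minus absorptive difference ranged from -0.90 to -0.47. Slc26a6 (0.099) and Aqp1 (0.11) turned in sign under epithelial scaling, where the median of all genes tested was 0.45. Aqp1 (0.065) and Aqp3 (-0.018) turned without library 7, Slc12a2 (-0.060) without library 9 and Aqp3 (-0.43) without library 10. Ranges over the fits that leave out 1 library were -0.060 to 0.41 (Slc12a2), -0.77 to 0.065 (Aqp1) and -0.43 to 0.74 (Aqp3). Depth was lowest for Aqp3, at 34 to 90 counts, and how much of its interval comes from depth was not tested.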
